A study of Danio rerio with 4 samples.

Results

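A set of 10 early heart genes was followed in whole zebrafish embryos that lacked mdm2 and in their siblings. Embryos of both groups were also homozygous for mutations in puma, noxa and p21. Titles, though not the tissue label, give their age as 18 hours post-fertilization. They were the transcription factor genes nkx2.5, gata4, gata5, gata6, hand2, tbx5a and tbx20, the cardiac myosin heavy chain genes myh6 and vmhc, and the natriuretic peptide gene nppa. Members were chosen by gene symbol, with case ignored and the copy letter allowed to be missing. Of the 10 symbols, 9 were found, under 11 of the 32057 Ensembl gene identifiers in the deposited table. The symbol myh6 stood for 3 identifiers, tbx5a was listed as tbx5, and no identifier carried the symbol vmhc. Which of the myosin heavy chain identifiers is which cardiac chain was not settled, so a value given for myh6 may belong to vmhc.

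In vertebrate embryos the heart arises from lateral plate mesoderm on both sides of the midline. Gata, Nkx2.5, Hand2 and T-box factors specify the cardiac progenitors there, and the progenitors then fuse into a tube and switch on the contractile genes. In zebrafish, loss of gata5 or hand2 reduces the myocardium and blocks fusion of its sides, and loss of tbx5a impairs both heart looping and pectoral fin outgrowth. Several of these genes are also used outside the heart: gata4, gata5 and gata6 in endoderm, hand2 in pharyngeal arches and fin buds, and tbx5a in the eye and the fin field.

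RNA came from 4 libraries, 2 per genotype, each made by poly-A selection. The quadruple mutants, called abnormal in their titles, were mdm2-/- and also homozygous for mutations in puma, noxa and p21. The sibling controls, called normal, were puma-/-, noxa-/- and p21-/- as well but mdm2+/- or mdm2+/+, so that no library in the comparison was wild type. Mdm2 is the ubiquitin ligase that holds p53 in check, puma and noxa are pro-apoptotic targets of p53, and p21 is the cyclin-dependent kinase inhibitor it induces. Titles and the column names of the deposited table place collection at 18 hours post-fertilization (hpf), and only the tissue label gives 30 hpf. The labels do not explain this disagreement. Appearance, developmental stage and genotype cannot be told apart in this design.

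Abundance was given as TPM, a unit that divides by transcript length and brings every library to an equal sum, so sequencing depth is unknown. Each difference was taken as mutant minus control after log2(TPM + 1) transformation, in which low genes appear to change less than they do, and was tested with limma across 16172 genes that reached 1 TPM in at least 2 libraries. Of these genes 65.6% had an adjusted p under 0.05, 28.0% being higher and 37.7% lower in the mutants, and the median difference was -0.10. Median ratio scaling moved that median to 0.02 and turned the balance of calls from 4522 higher and 6091 lower to 5469 higher and 5128 lower. Differences of early heart genes read about 0.1 higher under it. Whether replicates were separate clutches is not stated in the labels, so that p-values reflect the variation among 4 libraries and may cover technical variation alone. In whole embryos, fewer cells of a type and less RNA per cell cannot be told apart.

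Early heart genes did not move as a block. Of the 8 identifiers that were tested, nkx2.5, gata5, gata6 and hand2 rose, gata4, tbx5a and 1 identifier listed as myh6 fell, and tbx20 did not pass. Those 7 calls of 8 compare with 65.6% among all genes tested, 4 higher with 28.0% and 3 lower with 37.7%. The median difference of the 8 tested identifiers was -0.13, against -0.10 for all genes. It fell between tbx20 (-0.59) and gata5 and gata6 (0.33 each), so it describes no single member. The genotypes did not overlap for any of the 8, and this was so for 83.3% of all genes tested. The called myh6 identifier was under 1 TPM in both mutant libraries and passed the filter only through the controls, so that once tested it had to be lower in the mutants. The other 3 identifiers, both remaining myh6 identifiers and nppa, were under 1 TPM in every library.

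**Figure D1:**
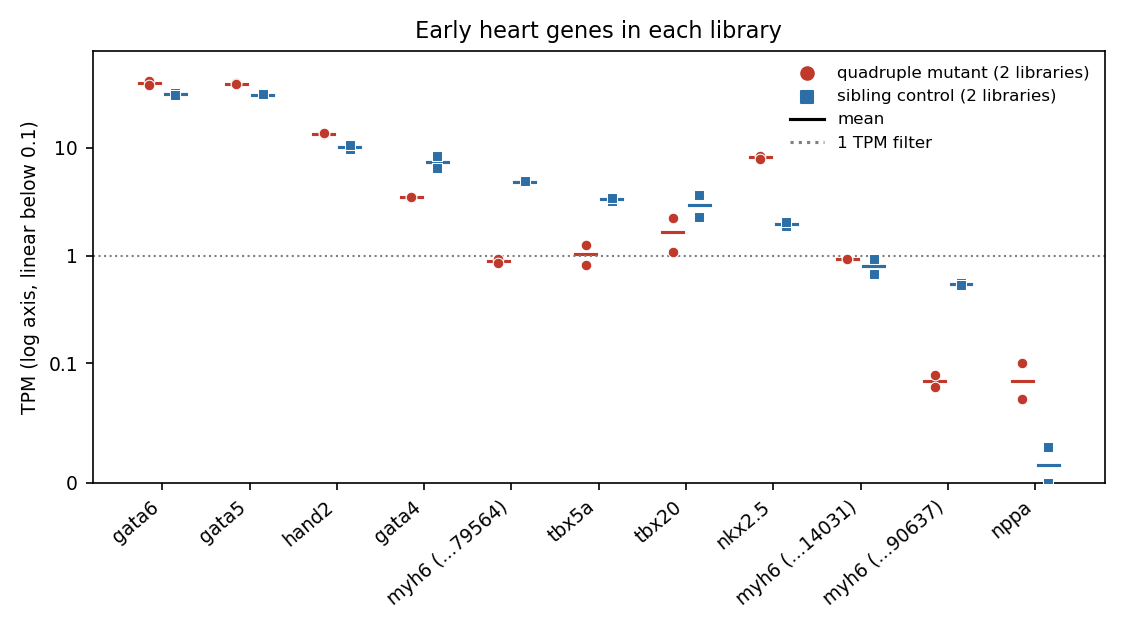
TPM of the 11 early heart gene identifiers in each library, on an axis that is logarithmic above 0.1 TPM, ordered by the control mean. Points are libraries (2 per genotype), bars are means and the dotted line is the filter of 1 TPM; nkx2.5 stands at about 8 TPM in both mutants and about 2 TPM in both controls, while gata4, tbx5a and the first myh6 identifier lie lower in the mutants.

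The homeobox gene nkx2.5, among the earliest markers of cardiac progenitors, gave the largest rise of the tested members. It (ENSDARG00000018004, listed as nkx2-5) had 8.41 and 7.97 TPM in the mutant libraries and 1.88 and 2.05 TPM in the controls. Both mutants lay about 4-fold above both controls, with a ratio of means of 4.17. The log2 difference was 1.63 (SE 0.112, limma adjusted p = 9.01e-05), and it stayed past the threshold in each of the 12 alternative analyses. In the controls nkx2.5 was the lowest of the 7 heart transcription factors in TPM, whereas in both mutants it came next after gata5, gata6 and hand2.

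Transcripts of gata5 and gata6, zinc finger factors that promote both cardiac and endodermal fates, were the most abundant of the set and rose by small amounts. gata5 (ENSDARG00000017821) was at 40.07 and 38.92 TPM in the mutants and at 30.78 and 31.82 TPM in the controls. Its log2 difference was 0.33 (SE 0.0669, limma adjusted p = 0.00629). gata6 (ENSDARG00000103589) was at 42.29 and 38.22 TPM against 32.16 and 31.37 TPM, a log2 difference of 0.33 (SE 0.0771, adjusted p = 0.0104). Mutants lay above controls for both genes without overlap, by ratios of means of 1.26 and 1.27. Neither call held in every left-out analysis, with adjusted p = 0.0661 for gata5 and 0.0577 for gata6 without control replicate 1, and 0.0776 for gata6 without control replicate 2.

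gata4, the third Gata factor of the heart and endoderm, went the other way. Its values (ENSDARG00000098952) were 3.53 and 3.49 TPM in the mutants and 6.54 and 8.40 TPM in the controls. The mutant libraries nearly coincided, while the controls differed more from each other and both lay above the mutants. The log2 difference was -0.90 (SE 0.139, limma adjusted p = 0.00199), with a control to mutant ratio of 2.13. Without control replicate 2, the higher of the controls, the difference was -0.74 (adjusted p = 0.0143).

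The balance among the Gata transcripts therefore differed between genotypes within each library. gata4 made up 4.11% and 4.33% of the summed TPM of gata4, gata5 and gata6 in the mutants, against 9.41% and 11.7% in the controls. There were 11.4 and 11.2 gata5 transcripts per gata4 transcript in the mutants and 4.71 and 3.79 in the controls. The ratio of gata5 to gata6 was 0.948 and 1.02 in the mutants and 0.957 and 1.01 in the controls, and here the genotypes overlapped. Of the ratios computed against gata4, that of nkx2.5 shifted most. There were 2.38 and 2.28 nkx2.5 transcripts per gata4 transcript in the mutants against 0.287 and 0.244 in the controls. Each ratio to gata4 sets a gene that rose against gata4, which fell, and so restates those calls. The ratio of nkx2.5 to tbx5a, also a gene that fell, was 6.67 and 9.84 in the mutants against 0.58 and 0.599 in the controls. With 2 libraries per genotype an exact permutation test of such a ratio cannot go below p = 0.333, so these ratios are given as values. A scaling factor common to all genes of a library leaves these ratios unchanged. Quantile normalization can change them, and they were not computed under it.

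**Figure D2:**
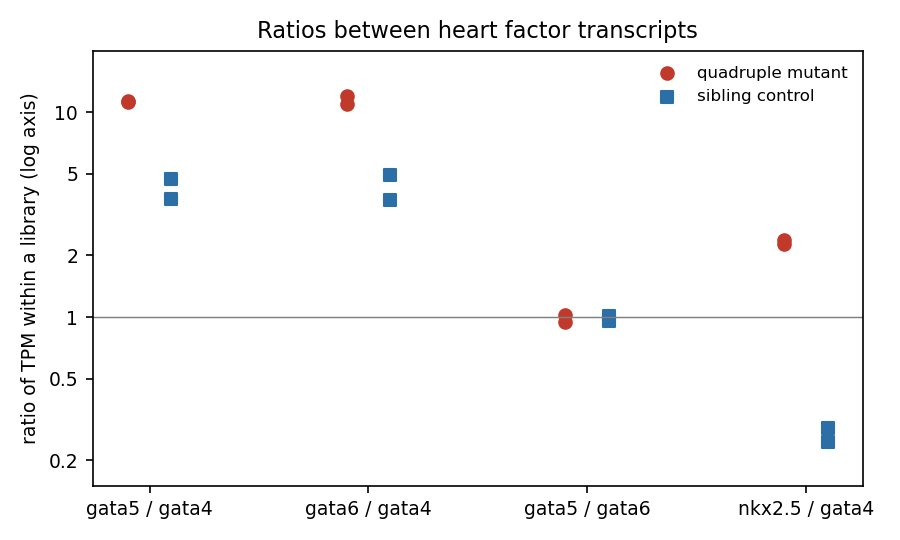
Ratios of TPM between pairs of heart factor genes within each library, on a logarithmic axis, with circles for the 2 mutant and squares for the 2 control libraries. Ratios of gata5, gata6 and nkx2.5 to gata4 are higher in both mutants, nkx2.5 to gata4 reaching 2.38 against 0.287 in the higher control, whereas gata5 to gata6 lies near 1 in all 4 libraries.

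hand2, the basic helix-loop-helix factor needed for myocardial differentiation, rose slightly. It (ENSDARG00000008305) stood at 13.43 and 13.64 TPM in the mutants and at 9.83 and 10.65 TPM in the controls. The mutants agreed closely and both lay above the higher control. The log2 difference was 0.37 (SE 0.0902, limma adjusted p = 0.0122), and without control replicate 1 it was 0.32 with an adjusted p of 0.0958.

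Of the T-box members, tbx5a fell and tbx20 did not pass. tbx5a (ENSDARG00000024894), which acts in heart looping and in the pectoral fin, was at 1.26 and 0.81 TPM in the mutants and at 3.24 and 3.42 TPM in the controls. Both mutants lay well under both controls, near the filter of 1 TPM, with a control to mutant ratio of 3.22. The log2 difference was -1.10 (SE 0.152, limma adjusted p = 0.00127). tbx20 (ENSDARG00000005150), a regulator of heart tube growth that is also active in motor neurons, was at 2.24 and 1.09 TPM in the mutants and at 2.26 and 3.68 TPM in the controls. The higher mutant library almost met the lower control, and libraries of the same genotype differed by more than those 2 did. Its difference was -0.59 with a 95% interval of -1.24 to 0.07 (limma adjusted p = 0.0982). Both no change and a fall of the size seen for tbx5a lie within that interval. With 1 library left out, the difference ran from -0.90 without mutant replicate 1 to -0.27 without mutant replicate 2.

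**Figure D3:**
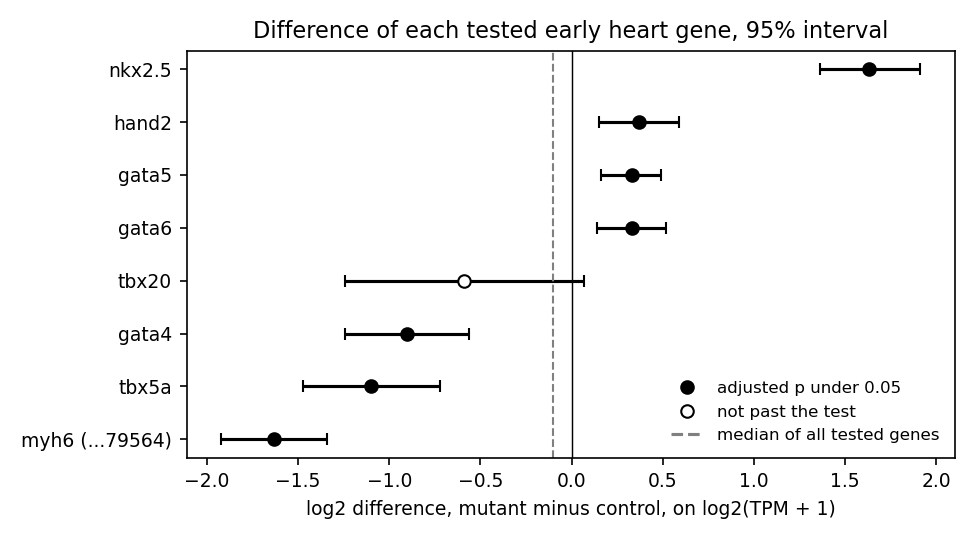
Difference between genotypes for the 8 tested early heart gene identifiers, mutant minus control on the log2(TPM + 1) scale, with 95% intervals from limma. Filled points have an adjusted p under 0.05, the open point (tbx20) does not, and the dashed line is the median of all tested genes at -0.10. Differences run from -1.63 for ENSDARG00000079564, listed as myh6 but not assigned to a cardiac chain, to 1.63 for nkx2.5.

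The identifiers listed as myh6 were under 1 TPM in all libraries, except for ENSDARG00000079564 in the controls. The cardiac heavy chains form the thick filaments of heart muscle, and myh6 is the atrial chain in zebrafish. The identifier ENSDARG00000079564, to which the name table gives the human symbol MYH6, was at 0.93 and 0.85 TPM in the mutants and at 4.82 and 4.89 TPM in the controls. The genotypes were separated by a control to mutant ratio of 5.46, and the log2 difference was -1.63 (SE 0.118, limma adjusted p = 0.000109). It could not be tested with either control left out, since the remaining libraries did not meet the filter. The identifier that carries the zebrafish symbol myh6 (ENSDARG00000090637) was at 0.08 and 0.09 TPM in the mutants and at 0.55 and 0.53 TPM in the controls. With no filter on low values its difference was -0.51 (SE 0.0614, adjusted p = 0.00393).

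The remaining identifier under that human symbol (ENSDARG00000114031) gave 0.93 TPM in both mutants and 0.92 and 0.67 TPM in the controls, a difference of 0.11 with no filter (adjusted p = 0.492). Its genotypes were separated by 0.01 TPM only. Myosin heavy chain genes are close copies of each other, and the labels do not say how reads common to several copies were divided. The RefSeq gene table lists vmhc, the ventricular chain, as a synonym of its myh7 and gives no Ensembl identifier for it. ENSDARG00000079564 may therefore be vmhc or another cardiac chain, and its fall is not assigned to the atrial chain. An identifier listed as myh7 (ENSDARG00000079782) was at 0.10 and 0.22 TPM in the mutants and at 0.14 and 0.12 TPM in the controls.

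nppa, which encodes atrial natriuretic peptide and marks the chamber myocardium of the formed heart, was near 0 in all libraries. It (ENSDARG00000052960) was listed at 0.10 and 0.07 TPM in the mutants and at 0 and 0.03 TPM in the controls. Its level gave no basis for a fold, and with no filter its difference was 0.10 (adjusted p = 0.189). Its neighbour in function nppb (ENSDARG00000052958), which encodes a second natriuretic peptide, was at 4.31 and 2.79 TPM in mutants, with controls listed at 0 and 0.13 TPM (difference 2.08, SE 0.195, adjusted p = 0.000273). nppb passed the filter only through the mutants, so that once tested it had to be higher there.

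A list of other heart regulators, made of further transcription factors, cofactors and signals of heart formation, also went both ways. Of its 35 identifiers 34 were tested, 8 rose, 17 fell and 9 did not pass, with a median difference of -0.34 against -0.10 for all genes. Of the lower calls alpk2 passed the filter only through the controls and had to be lower. Among all genes tested 28.0% were higher and 37.7% lower, and the counts of this and the later lists stand beside those shares. The other cardiac NK2 homeobox gene of the zebrafish, nkx2.7, stood at 47.02 and 47.87 TPM in the mutants and at 19.56 and 19.19 TPM in the controls (1.25, SE 0.0674, limma adjusted p = 4.06e-05). In TPM it was more abundant than nkx2.5 in every library, and it rose in the same direction. The apelin receptor gene aplnrb, which guides cardiac progenitors to the heart field, was at 177.7 and 154.04 TPM against 24.98 and 25.75 TPM (2.66, SE 0.0833). Its paralogue aplnra did not pass, with a difference of -0.23 (adjusted p = 0.0505).

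Copies of smarcd3, a subunit of the BAF chromatin remodeller that works with Gata and T-box factors in the mouse heart, moved apart. ENSDARG00000038786 stood at 48.11 and 46.86 TPM in the mutants and at 4.66 and 3.84 TPM in the controls (3.21, SE 0.104). ENSDARG00000019969 stood at 6.89 and 6.66 TPM against 20.95 and 20.38 TPM (-1.48, SE 0.0859). Among regulators tied to chambers and the outflow tract, nr2f1, which supports atrial identity, fell in both of its identifiers. The differences were -2.43 (SE 0.164) for ENSDARG00000017168 and -1.50 (SE 0.105) for ENSDARG00000052695. ENSDARG00000017168 stood at 0.52 and 1.02 TPM in the mutants, near the filter of 1 TPM, and at 8.48 and 8.4 TPM in the controls. hey2, a Notch effector of the ventricle and the aorta, fell by 1.37 (SE 0.117), and tbx1, a factor of the second heart field and the arches, fell by 1.08 (SE 0.164). tbx3, a T-box repressor of the conduction system in the mouse, rose by 1.13 (SE 0.0735), and the signal bmp4 rose by 0.71 (SE 0.0831). The heart part of the levels of these regulators in whole embryos was not tested.

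The early mesodermal factors mespaa (-0.87, SE 0.109) and mespab (-1.47, SE 0.138) fell, although both are also transcribed in forming somites. The copies of mef2c, which activates contractile genes, differed in direction, at 0.36 (SE 0.0733) for ENSDARG00000029764 and -0.61 (SE 0.1) for ENSDARG00000009418. The second heart field and motor neuron factor isl1 did not pass, at 12.62 and 13.12 TPM in the mutants and 12.45 and 12.31 TPM in the controls (0.05, adjusted p = 0.615). tbx5b, the paralogue of tbx5a, was listed at 0 in both mutants and at 0.40 and 0.66 TPM in the controls and was not tested.

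Contractile, calcium handling and secreted genes of heart muscle were matched to 26 identifiers, of which 17 were tested. Of these 9 fell, 5 rose and 3 did not pass, with a median difference of -0.37. myl7, the regulatory light chain that is used as a marker of zebrafish cardiomyocytes, stood at 2.86 and 2.7 TPM in the mutants and 12.20 and 13.64 TPM in the controls (-1.88, SE 0.110, limma adjusted p = 5.3e-05). The genotypes were far apart for this gene. They were also apart for the heavy chain identifier ENSDARG00000079564, but that one passed the filter only through the controls and had to be lower. tnnc1a, the cardiac troponin C gene, fell by 1.24 (SE 0.152), and cmlc1, an essential light chain, fell by 0.52 (SE 0.0837), from 22.98 and 21.00 TPM to 14.95 and 15.04 TPM.

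Other genes of the same list rose. atp2a2a, the calcium pump of the sarcoplasmic reticulum, was at 34.70 and 31.40 TPM in the mutants and at 11.95 and 12.80 TPM in the controls (1.35, SE 0.088). The tropomyosin gene tpm4a rose by 0.95 (SE 0.0536), the myosin binding protein gene mybpc3 by 1.21 (SE 0.159) and the light chain gene myl4 by 0.59 (SE 0.135). tnnt2 (ENSDARG00000020610), a troponin T gene, did not pass, at 33.03 and 36.88 TPM against 30.36 and 31.32 TPM (0.17, adjusted p = 0.104). actc1a, an actin gene that somites also transcribe, was by far the most abundant of the list, at 1021.52 and 940.09 TPM in the mutants and 1003.37 and 1016.98 TPM in the controls (-0.04, adjusted p = 0.508). The genotypes overlapped for it. The heart muscle part of the levels of this list in whole embryos was not tested.

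The split of contractile calls depended on settings. It was 6 higher and 6 lower under median ratio scaling, and 5 were lower with either control left out. Without mutant replicate 2, 3 were higher. Like nppb, mybpc3 was under 1 TPM in both controls and passed the filter only through the mutants. kcnh6a and slc8a1 (ENSDARG00000013422), which fell by 0.48 and 0.43, passed only through the controls.

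Markers of neighbouring tissues moved too. Of 19 tested identifiers of skeletal muscle, the other striated muscle, 13 fell, 2 rose and 4 did not pass (median -0.79; 12 lower and 4 higher under median ratio scaling). Of those that fell, myhz1.1 and myhz2 passed the filter only through the controls and had to be lower. The summed level of the list was 1560 and 1440 TPM in the mutants and 2010 and 2030 TPM in the controls, and both identifiers of the fast light chain gene myl1 fell (-1.90 and -2.07). The 2 that rose, named with their values in view, were cav3 (0.85, SE 0.0801) and an acta1 identifier (ENSDARG00000036371; 0.22, SE 0.0513). Of 12 tested identifiers of endoderm, which also transcribes gata4, gata5 and gata6, 7 fell, 2 rose and 3 did not pass (median -0.32). Under median ratio scaling, and also under quantile normalization, 5 were lower and 2 higher. The summed endoderm level was 122 and 130 TPM in the mutants and 134 and 135 TPM in the controls. The 2 that rose were foxa2, at 44.27 and 41.75 TPM against 16.17 and 17.35 TPM, and nkx2-3 (0.89, SE 0.102). Among those lower in the mutants were cxcr4 (ENSDARG00000057633, -1.70) and foxa1 (-1.34). As the sums include both risers, they do not give the direction of the other members. sox17 and sox32, which define early endoderm, were at or under 0.15 TPM in all libraries and cdx1b was listed at 0 in all. The part of these tissues in the levels of gata4, gata5 and gata6 was not tested.

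Endothelium and blood, like the heart, arise from lateral plate mesoderm, though not all of it lies beside the heart field. Of their 19 tested identifiers 7 rose, 8 fell and 4 did not pass (median 0.02), with summed levels of 551 and 515 TPM in the mutants and 708 and 762 TPM in the controls. Most of the control sums came from hbbe3 (270.33 and 310.07 TPM) and hbae3 (247.92 and 256.46 TPM). In the mutants hbbe3 was at 97.12 and 84.86 TPM and hbae3 at 122.86 and 110.73 TPM. The sums therefore follow these globin genes and do not give the direction of the other members. The progenitor factors tal1 (1.22, SE 0.0621) and lmo2 (1.36, SE 0.0721) and the endothelial factor sox7 (1.98, SE 0.0799) rose. Other endothelial members, named with their values in view, did not share a direction. Of these cdh5 (0.71) and egfl7 (0.84) rose, sox18 (-0.44) fell, and kdrl (0.02), fli1 (0.06) and tie1 (-0.24) did not pass. Lower members, named with their values in view, included the embryonic globin genes hbbe3 (-1.66, SE 0.0941) and hbae3 (-1.11, SE 0.0668) and the erythroid factor gene gata1a (-1.19, SE 0.121), and tek fell after passing the filter only through the controls. Markers of the fin field and arches, which also transcribe tbx5a and hand2, gave 6 higher, 3 lower and 5 not past the test among 14 (median 0.08; 1 and 0 lower without control replicates 1 and 2 in turn), and their sum was 222 and 224 TPM against 165 and 166 TPM. The arch and limb homeobox genes dlx6 (2.62, SE 0.119) and dlx2 (ENSDARG00000017174, 1.76, SE 0.125) rose, as did prdm1 (0.92, SE 0.0677). In TPM prdm1 was at 48.26 and 46.15 against 24.24 and 24.62, and dlx6 at 22.52 and 23.6 against 3.28 and 2.59. Much of the gap between the sums came from prdm1 and dlx6, so it does not give the direction of the other members. The limb bud signal fgf10 (ENSDARG00000030932; -0.75, SE 0.153), sall4 (-0.23, SE 0.0741) and tbx4 (-1.15, SE 0.143), chosen after their values were seen, fell, tbx4 having passed the filter only through the controls. The fin field and arch part of the levels of tbx5a and hand2 was not tested.

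Heart gene levels also depend on stage, and lists of early and late genes were read beside them. Of 16 tested tailbud and segmentation identifiers, whose transcripts decline as somites are completed, 11 fell, 2 rose and 3 did not pass (median -0.53), with sums of 369 and 380 TPM in the mutants and 476 and 471 TPM in the controls. tbx6 fell by 0.87 (SE 0.0789), and both wnt8a identifiers rose (2.18 and 1.93). Without control replicate 2, 7 of the list were lower. Of 12 tested identifiers whose transcripts mount later, 7 fell, 3 rose and 2 did not pass, and without control replicates 1 and 2 in turn 3 and 2 were lower. As 4 of the 7 (dct, tyrp1, mitf and myhz2) passed the filter only through the controls, and 1 riser, fabp7 (ENSDARG00000034650), only through the mutants, their direction was fixed by the filter and the count gives no reading of stage. The sum of this list was 2950 and 3030 TPM against 1940 and 2010 TPM, most of it the hatching enzyme gene he1.1 at 2631.73 and 2698.81 TPM against 1591.20 and 1654.46 TPM (0.72, SE 0.0446). A fabp7 identifier (ENSDARG00000007697), a radial glial gene, fell by 2.85 (SE 0.109). The lens gene cryaa and the myelin gene mbpa were listed at 0 in all 4 libraries. The part of stage in the heart gene levels was not tested.

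**Figure D4:**
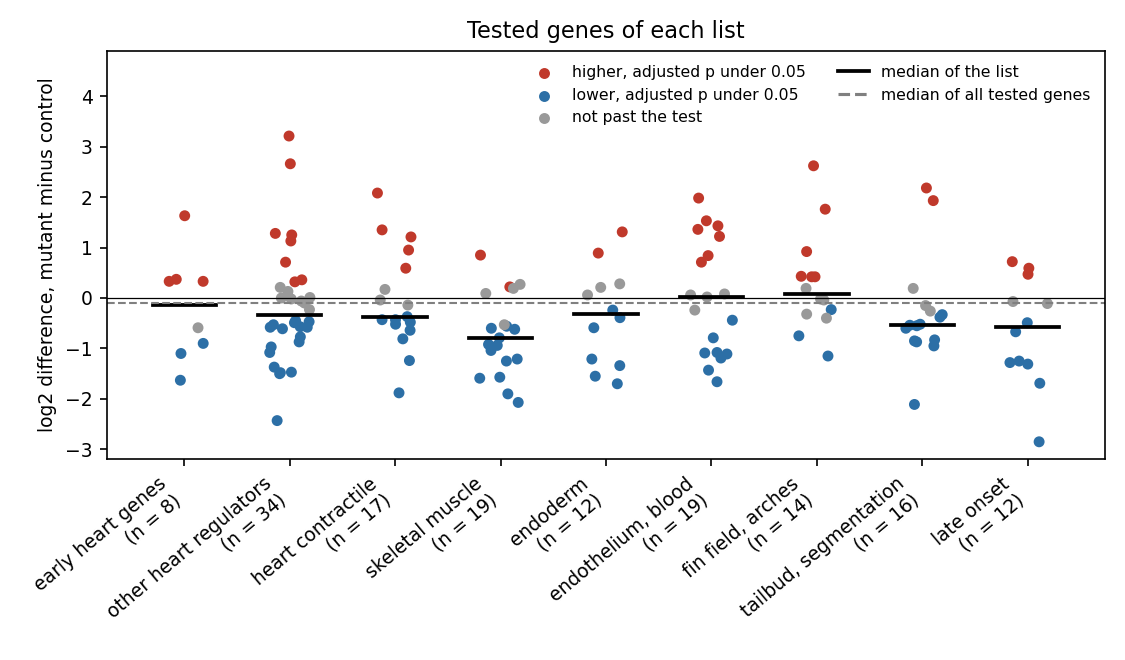
Difference between genotypes for each tested gene of 9 lists, mutant minus control on the log2(TPM + 1) scale, with the number tested under each list. Points are genes coloured by the limma call, short bars are list medians and the dashed line is the median of all tested genes; early heart genes spread from -1.63 to 1.63 around a median of -0.13, and every list holds genes in both directions.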

How the data were processed

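Poly-A libraries of whole embryos were sequenced as paired reads of 150 bp from about 500 ng of RNA, per the labels' protocols. The authors deposited TPM per Ensembl gene. Genome build GRCz11 is named in the submitters' processing notes, together with RSEM 1.3.3, STAR 2.7.3a and HTSeq 0.12.3. The step that made the TPM is not identified there. TPM keeps no depth, so counting error is unknown and no count model was used. A rise of abundant genes lowers the TPM of others.

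Genotype and replicate number came from the titles. A name table gave symbols to 28988 of 32057 identifiers, and a symbol shared by more than 4 was not used. Genes reaching 1 TPM in 2 or more libraries were transformed to log2(TPM + 1) and compared with limma 3.58.1 (R 4.3.3, variance trend on). Adjustment was by Benjamini-Hochberg over all of them, with a threshold of 0.05. The test was run on simulated data in which few genes changed, by large amounts, and none of those was low. That setting differs from these data, so the run does not bear on low genes or small differences. Summaries used Python 3.11.15 with pandas 2.3.3.

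Members and gene lists were chosen with earlier results of these data known. All members were named, and any gene of both heart lists could be named. Other lists gave up to 3 identifiers of lowest p, plus markers at or near 0. They also gave members moving the other way where those 3 moved one way. Further endothelial genes and nkx2-3 were named with their values in view. Genes of the NK2, Gata and T-box families were chosen after their values were seen. The alternatives changed the pseudocount (0.1 or 5 TPM), the filter (none or 5 TPM), the scaling (by median ratios, or quantile normalization), or the variance trend. Others added the replicate number as a block or left out 1 library. Sequences of the genes were not used here.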

Additional observations from a re-analysis of the deposited data

How the results depend on the processing

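In the alternatives that tested it, no early heart gene reversed its direction. Such alternatives numbered 12 for most members, 11 for tbx5a and tbx20, and 9 for ENSDARG00000079564, listed as myh6. As the genotypes did not overlap for any tested member, only median ratio scaling and quantile normalization could have reversed a direction. For ENSDARG00000079564 the filter had fixed it. With no filter the same 4 libraries gave the same difference for that identifier, -1.63. The number called higher was 4 in each alternative that kept all libraries and ranged from 1 to 4 with a library left out; it was 1 without control replicate 1, when nkx2.5 alone was counted, and 3 without control replicate 2. The number called lower was 1 with a filter of 5 TPM, since tbx5a and myh6 (ENSDARG00000079564) are then not tested, 4 with no filter, when myh6 (ENSDARG00000090637) is added, and 2 to 4 with a library left out. Log2 differences ranged from 0.92 to 2.01 for nkx2.5 and from -1.06 to -0.55 for gata4. With a replicate block 4 were higher and 3 lower, and the block changed no call of an early heart gene. The numbers were not taken as pairs, as deviations of same-numbered libraries correlated at 0.0488 across genes. Where 1 library was left in a genotype it was assumed to vary like the other. With a filter of 5 TPM, 2 heart contractile genes were higher and 2 late genes lower. Skeletal muscle genes called higher numbered 1 to 4 across the alternatives. TPM do not show depth, so counting error near 1 TPM is unknown.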

Other observations

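Transcripts of the NK2 homeobox family, chosen after their values were seen, went both ways. Of 9 tested identifiers 3 rose, 5 fell and 1 did not pass, where 28.0% of all tested genes were higher and 37.7% lower. Besides nkx2.5 and nkx2.7, the third to rise was the pharyngeal gene nkx2-3, at 22.25 and 25.35 TPM in the mutants and 11.67 and 13.03 TPM in the controls (0.89, SE 0.102, limma adjusted p = 0.000599). Members that fell were nkx2.2b, a gene of the ventral neural tube, at 0.73 and 1.51 TPM against 7.49 and 7.68 TPM (-2.04, SE 0.193), nkx2.9 at -1.35 (SE 0.146), nkx2-2 at -1.29 (SE 0.155) and nkx2-1 at -1.20 (SE 0.160). 1 copy of nkx2-4 (ENSDARG00000104107) fell by 1.12 (SE 0.143), and the other (ENSDARG00000075107) did not pass, at 0.04 (adjusted p = 0.773).

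In the Gata family, chosen in the same way, 4 of 6 tested identifiers rose and 2 fell, where 28.0% of all tested genes were higher and 37.7% lower. gata2, which acts in blood and endothelial progenitors, was at 51.34 and 49.09 TPM in the mutants and 17.09 and 18.92 TPM in the controls (1.43, SE 0.0801), gata3 rose by 0.27 (SE 0.0789), and the erythroid factor gata1a fell with gata4, by 1.19 (SE 0.121). The T-box family was also chosen after its values were seen, and its counts stand beside the same shares of all genes. Of 15 tested T-box identifiers 10 fell, 2 rose and 3 did not pass (8 lower and 3 higher under median ratio scaling). The exceptions that rose were tbx3 and tbx3b, at 8.77 and 10.24 TPM against 4.03 and 3.28 TPM (1.18, SE 0.135) for tbx3b, whereas tbx4 and tbx15, among those that fell, passed the filter only through the controls and had to be lower.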
